A study of Mus musculus with 6 samples.

Results

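The nuclear genes for mitochondrial protein import and for the metabolite carriers of the inner membrane were examined in mouse embryonic stem (ES) cells labelled as Alkbh1 knockout (KO). The members were the tested genes whose symbol starts with Timm, Tomm or Slc25a followed by a digit, without Timm17a and Slc25a31, which gave 64 genes of 14095 tested. They comprised 23 import translocase genes, 40 carrier genes and Tomm6os, an antisense RNA gene caught by its name alone. Another 6 carrier genes that fit the name pattern were not tested by the authors.

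The Alkbh1 KO had 4 libraries from 2 clones at 2 libraries each, and was set against wildtype TT2 ES cells (WT) with 2 libraries. All 6 libraries came from the TT2 line on a C57BL6 x CBA background, at passage 5, grown without feeder cells. The Alkbh1 protein is one of the AlkB dioxygenases, which take methyl groups off nucleic acids. Gene values were deposited as 1 FPKM (fragments per kilobase of transcript corrected for library size) for KO and 1 for WT, with the authors' own fold change and q-value, so no value carries an SD, the depth is unknown and the clones cannot be told apart from the genotype. A gene is called lower or higher below where the q-value in the authors' deposited table was under 0.05.

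Nearly all mitochondrial proteins are made in the cytosol and enter through the TOM complex of the outer membrane. From there, proteins with a presequence pass through the TIM23 complex of the inner membrane, while the many-spanning carrier proteins are escorted by the small Tim chaperones of the intermembrane space to the TIM22 complex. The carriers of the Slc25 family are thus clients of one branch of this machinery, and they exchange nucleotides, phosphate, amino acids, carboxylates and cofactors across the inner membrane. ES cells are known to rely much on glycolysis while keeping active mitochondria.

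Some features of the whole comparison bear on every value below. Alkbh1 itself stood at 18.1 FPKM in KO and 33.9 FPKM in WT, with q = 0.0943 in the authors' deposited table, in a region joined over 5 genes. Of all tested genes, 50.8% were called, 28.4% lower and 22.4% higher, and the median log2 fold change (KO over WT) was -0.060. Summed FPKM over tested genes was 624340 in KO and 981679 in WT. Scaling both to equal totals would raise every log2 fold change by 0.65, so directions are given below as deposited and, where they turn, under that scaling too. Of 8 ES cell markers, 6 were called lower, yet all lay at 39.1 FPKM or more in KO and at 39.5 FPKM or more in WT. The 7 fibroblast markers summed to 11.0 FPKM in KO and 7.13 FPKM in WT, most of it Thy1 at 9.39 FPKM in KO and 6.43 FPKM in WT. Col3a1 and Lum were listed at 0 in WT, and all 3 tested fibroblast markers were called higher. Endoderm markers summed to 1.02 FPKM in KO and 0.773 FPKM in WT, and neuroectoderm markers to 6.26 FPKM in KO and 9.04 FPKM in WT. Of the 4 neuroectoderm markers 3 were called lower, while Nes stood at 4.79 FPKM in KO and 3.70 FPKM in WT and was not called. Trophoblast markers summed to 42.8 FPKM in KO and 48.3 FPKM in WT, nearly all of it Tfap2c, which ES cells also express and which was not called. Of the other tested trophoblast markers, Elf5 and Hand1 were called higher and Gata3 lower, all at 1.86 FPKM or less in either genotype, and the 1 endoderm marker tested, Gata4, was called higher. The part of other cell types in the results below was not tested.

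Most translocase genes were lower in KO, while the carrier genes were split. Of 23 translocase genes, 18 (78.3%) were called lower in KO and none higher, where 28.4% of all tested genes were lower. Called or not, 21 of the 23 lay below 0, and the median log2 fold change was -0.77. Of 40 carrier genes, 7 were called lower and 7 higher, or 17.5% each way, and 26 were not called. Both shares were below those of all tested genes, at 28.4% lower and 22.4% higher. The carriers' median log2 fold change was -0.051, next to -0.060 for all tested genes. The medians of translocases and carriers differed by -0.72 on the log2 scale, a difference that any single scaling factor leaves as it is. With equal totals, the translocase median would be -0.12 and 4 of the 18 genes called lower (Timm44, Timm50, Tomm40 and Tomm40l) would lie above 0, while the carrier median would be 0.60. Summed over members, translocase transcripts came to 1390.2 FPKM in KO and 2669 FPKM in WT, or 52.1% of the WT sum. Carrier transcripts came to 1757 FPKM in KO and 2335 FPKM in WT, or 75.2%.

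**Figure D1:**
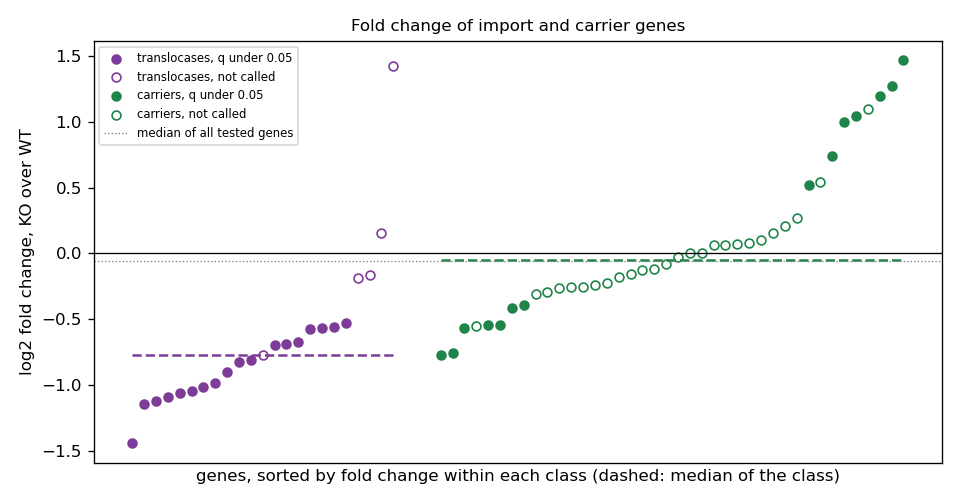
Log2 fold change (KO over WT, vertical axis) of the 23 translocase and 40 carrier genes, sorted within each class along the horizontal axis; filled points have a deposited q under 0.05, dashed lines are the class medians (-0.77 and -0.051) and the dotted line is the median of all tested genes (-0.060). The translocases lie mostly below 0 and the carriers on both sides of it, on the deposited scale; with equal totals every point would stand 0.65 higher.

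The promoters of the members were read first, since the translocase genes moved together. Sequences are from RefSeq (GRCm38.p6), cover the 250 bases before the gene's start, and were found for 20 of 23 translocase and 30 of 40 carrier genes. Nuclear respiratory factor 1 (NRF1) and the ETS factor GABP are textbook regulators of nuclear genes for mitochondria. Below, capitals mark matches on either strand to the NRF1 letters GCGCNNGCGC or the GABP letters CCGGAAG. The sequences are those of the import channel gene Timm23, the receptor genes Tomm22 and Tomm20 and the chaperone gene Timm10, which all fell to at most 49.6% of the WT level, of Timm8a1, which fell furthest and holds neither match, and of the carrier gene Slc25a3, which holds both. Timm9 and Timm8b also fell below 49.6% and are not shown. Timm9 holds neither match and Timm8b holds the GABP letters only.
Timm23 (chr14:32201892-32202141, minus strand): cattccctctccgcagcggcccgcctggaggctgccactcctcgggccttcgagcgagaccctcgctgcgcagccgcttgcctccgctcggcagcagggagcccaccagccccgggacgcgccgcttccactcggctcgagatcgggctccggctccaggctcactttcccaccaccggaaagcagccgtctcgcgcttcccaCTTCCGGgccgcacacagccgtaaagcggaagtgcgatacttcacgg
Tomm22 (chr15:79670618-79670867, plus strand): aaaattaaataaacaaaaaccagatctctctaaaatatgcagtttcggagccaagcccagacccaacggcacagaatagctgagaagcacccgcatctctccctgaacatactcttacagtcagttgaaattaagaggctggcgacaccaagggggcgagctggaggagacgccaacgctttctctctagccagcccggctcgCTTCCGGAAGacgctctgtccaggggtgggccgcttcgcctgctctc
Timm10 (chr2:84826771-84827020, plus strand): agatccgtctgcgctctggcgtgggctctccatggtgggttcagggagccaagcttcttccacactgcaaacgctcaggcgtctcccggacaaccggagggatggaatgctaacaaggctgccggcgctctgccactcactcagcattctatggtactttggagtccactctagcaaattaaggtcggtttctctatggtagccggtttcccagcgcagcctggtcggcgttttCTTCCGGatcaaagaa
Tomm20 (chr8:126945922-126946171, minus strand): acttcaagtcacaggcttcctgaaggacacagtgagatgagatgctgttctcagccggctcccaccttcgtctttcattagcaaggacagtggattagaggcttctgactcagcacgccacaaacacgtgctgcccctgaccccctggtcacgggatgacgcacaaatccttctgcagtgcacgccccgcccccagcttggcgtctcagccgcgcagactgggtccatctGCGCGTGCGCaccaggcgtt
Timm8a1 (chrX:134541671-134541920, minus strand): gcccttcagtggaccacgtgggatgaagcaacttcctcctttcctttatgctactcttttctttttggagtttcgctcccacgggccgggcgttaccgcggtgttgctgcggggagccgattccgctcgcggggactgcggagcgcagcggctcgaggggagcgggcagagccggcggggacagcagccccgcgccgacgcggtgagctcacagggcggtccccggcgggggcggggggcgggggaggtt
Slc25a3 (chr10:91123968-91124217, minus strand): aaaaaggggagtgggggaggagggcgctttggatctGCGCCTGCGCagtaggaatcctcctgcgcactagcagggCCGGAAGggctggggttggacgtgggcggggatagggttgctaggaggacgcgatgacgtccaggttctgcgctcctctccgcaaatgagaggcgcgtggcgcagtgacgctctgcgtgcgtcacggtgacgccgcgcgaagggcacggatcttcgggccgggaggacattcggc

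The GABP letters were present in 7 of 20 translocase promoters (35%) and 5 of 30 carrier promoters (16.7%), against 15.1% of the 10405 tested genes with a promoter. In Tomm22 they match both strands at once, in overlapping positions. The 7 translocase genes with these letters, Timm8b, Timm10, Timm23, Tomm22, Tomm34, Tomm70a and Timm8a2, had a median log2 fold change of -1.01 and spanned -1.14 to 0.15. The 13 translocase genes without them had a median of -0.69 and spanned -1.44 to 1.42, so the ranges overlap. These medians take no account of expression level, which moved with the fold change (given below). Relative to all tested genes in the same decile by mean FPKM, the middle gene of the 7 was Tomm22 at -0.29. That of the 13 was Tomm5 at -0.26, so little of the gap was left. Over all tested genes the order as deposited was the same, with a median of -0.28 for the 1566 with these letters and -0.021 for the 8838 without. These medians over all tested genes were not set against level. The NRF1 letters were present in 1 translocase promoter (Tomm20) and 1 carrier promoter (Slc25a3), which is 5% and 3.33% against 11.6% of tested genes. Of the other letters searched on both strands, GGGGCGG (Sp1) was in 35% of translocase and 50% of carrier promoters, against 43.1% of tested genes. CCAAT (NF-Y) was in 30% of translocase and 53.3% of carrier promoters, against 40.5% of tested genes. TATAAA was in 10% of translocase promoters and in no carrier promoter, against 8.02% of tested genes. ATGGCGG (YY1) was in 1 translocase promoter (Timm8b) and 1 carrier promoter (Slc25a42), against 4.32% of tested genes, and TGATGCAA (ATF4) was in no member's window, against 0.644%. The NRF1 and GABP matches do not overlap each other in the sequences shown. A match is a description of these letters and not a bound site.

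The TOM complex is the entry gate, and its core subunits were all called lower. Tomm40, the channel itself, stood at 59.8 FPKM in KO and 88.9 FPKM in WT. Tomm20, the receptor for presequences (chromosome 8, 129454563 to 129469821 in mm9), stood at 94.3 FPKM in KO and 194 FPKM in WT. Tomm22, the central receptor that joins the complex, stood at 131 FPKM in KO and 265 FPKM in WT. The receptors Tomm20 and Tomm22 were thus near one another in the depth of their fall, at 48.6% and 49.6% of the WT level, whereas the channel stood at 67.2%. Tomm70a, the receptor used by carrier proteins, stood at 82.0 FPKM in KO and 145 FPKM in WT, or 56.5%. Relative to genes of the same level decile, Tomm20 and Tomm22 lay at -0.32 and -0.29, Tomm70a at -0.10 and Tomm40 at -0.063.

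The small TOM subunits Tomm5, Tomm6 and Tomm7, which help assemble and stabilise the complex, were also called lower. Tomm5 stood at 162 FPKM in KO and 321 FPKM in WT, and Tomm7 at 106 FPKM in KO and 197 FPKM in WT. Tomm6 stood at 72.2 FPKM in KO and 126 FPKM in WT, in a region it shares with Prickle4 and Tomm6os. In the authors' deposited table the log2 fold changes of Tomm40, Tomm20, Tomm22, Tomm70a, Tomm5, Tomm6 and Tomm7 lay between -1.04 (Tomm20, q = 0.000206) and -0.57 (Tomm40, q = 0.00177). The q of 0.000206 is the smallest that table holds, so genes that share it cannot be ranked by it.

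The remaining Tomm genes were less uniform. Tomm40l, a paralog of the channel gene, was called lower at 10.2 FPKM in KO and 15.01 FPKM in WT, in a region joined with Nr1i3. Its share of the summed Tomm40 and Tomm40l level was 14.6% in KO and 14.4% in WT, so both fell in proportion. Tomm34, which encodes a cytosolic co-chaperone and not a membrane subunit, was not called, at 34.4 FPKM in KO and 38.5 FPKM in WT (q = 0.391 in the authors' deposited table). Tomm20l, a paralog of Tomm20, was listed at 1.74 FPKM in KO and 0.649 FPKM in WT and was not called (q = 0.488 in the authors' deposited table). Tomm20l lies in a region joined with Timm9, a gene of far higher level, and its value is uncertain.

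**Figure D2:**
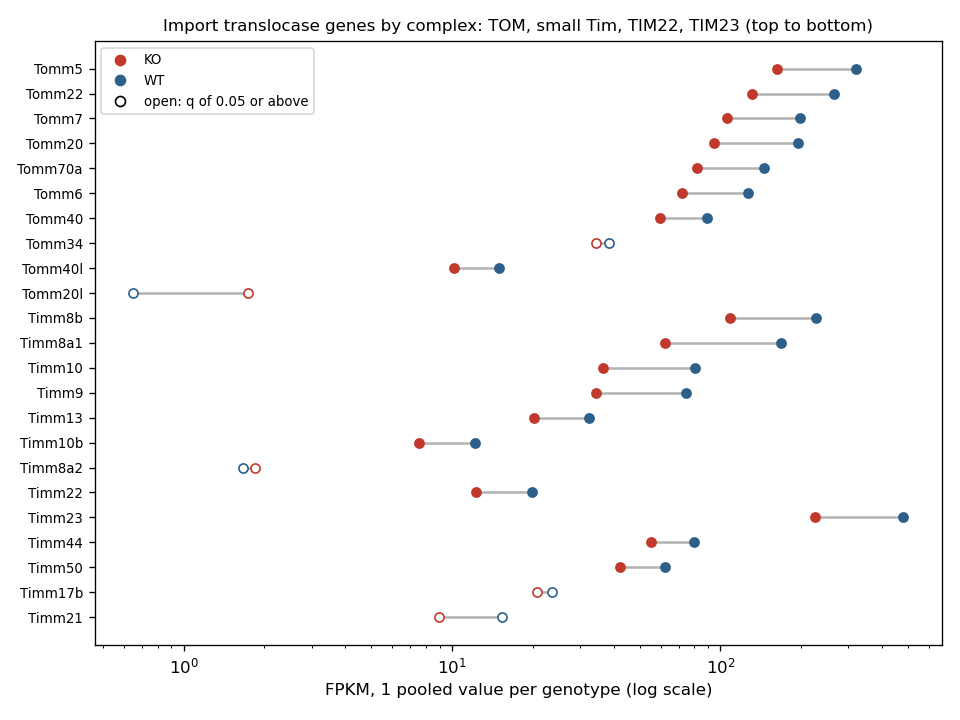
FPKM of the 23 translocase genes (log axis) in KO (red) and WT (blue), 1 pooled value each, grouped from top to bottom as TOM complex, small Tim chaperones, TIM22 and TIM23; open points were not called. The red point lies left of the blue one for 21 genes, and the exceptions are Tomm20l and Timm8a2; with equal totals 8 genes would lie above 0.

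The small Tim chaperones carry hydrophobic proteins across the intermembrane space, and they were the group with the deepest fall. Timm8a1, the mouse counterpart of the human gene mutated in deafness-dystonia syndrome (X chromosome, 131071796 to 131076168 in mm9), stood at 62.0 FPKM in KO and 168 FPKM in WT. At 36.8% of the WT level and a log2 fold change of -1.44 in the authors' deposited table (q = 0.000206), it fell furthest of all 64 members. Its partner Timm13 stood at 20.3 FPKM in KO and 32.3 FPKM in WT, or 62.7%, in a region joined with Tmprss9.

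The partners Timm9 and Timm10 form the main chaperone ring, and both were called lower. Timm9 stood at 34.4 FPKM in KO and 74.6 FPKM in WT, and Timm10 at 36.4 FPKM in KO and 80.1 FPKM in WT. These are 46.1% and 45.4% of the WT level. Timm8b stood at 109 FPKM in KO and 226 FPKM in WT, in a region joined with AU019823 and Pih1d2. Timm10b, the small Tim that docks on the TIM22 complex, was called lower at 7.54 FPKM in KO and 12.2 FPKM in WT. The exception was Timm8a2, a weakly expressed paralog of Timm8a1, at 1.85 FPKM in KO and 1.66 FPKM in WT (q = 0.685 in the authors' deposited table). Summed over the 7 genes, small Tim transcripts came to 271 FPKM in KO and 596 FPKM in WT, or 45.5%.

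At the inner membrane, the channel genes of both branches were called lower. Timm22, the channel for carrier proteins, stood at 12.3 FPKM in KO and 19.9 FPKM in WT. Timm23, the channel for presequence proteins and the most abundant translocase transcript (chromosome 14, 32993351 to 33015077 in mm9), stood at 226 FPKM in KO and 481 FPKM in WT, for a log2 fold change of -1.09 (q = 0.000206) in the authors' deposited table. The drop was smaller for the TIM23 receptor Timm50, at 42.1 FPKM in KO and 62.4 FPKM in WT. It was likewise smaller for the motor anchor Timm44, at 55.3 FPKM in KO and 79.7 FPKM in WT. These 2 genes stood at 67.5% and 69.4% of the WT level, next to 47.0% for Timm23. Relative to genes of the same level decile, Timm50 and Timm44 lay at -0.057 and -0.016, next to -0.37 for Timm23 and -0.54 for Timm22.

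The other TIM23 subunits did not pass the threshold. Timm17b, a close partner of the channel, stood at 20.7 FPKM in KO and 23.6 FPKM in WT, or 87.8% of the WT level (q = 0.354 in the authors' deposited table). Timm21, which links TIM23 to the TOM complex, stood at 8.96 FPKM in KO and 15.3 FPKM in WT. Its log2 fold change of -0.77 is as large as that of genes that were called, but its q was 0.422 in the authors' deposited table. The ratio of log2 fold change to test statistic, which grows with the error the authors' program assigned, was 1.39 for Timm21, against a median of 0.28 over the 64 members. It was 2.95 for Tomm20l, 1.98 for Tomm6os and 1.54 for the carrier gene Slc25a35. All 4 lie in regions joined with another gene, which for Timm21 is Fbxo15 and for Slc25a35 is Rangrf. The other 9 members in joined regions had ratios from 0.26 to 0.62. The part of joined regions in these values was not tested.

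Among the carriers, the 3 abundant ones of oxidative phosphorylation made up 70.4% of the summed carrier level in KO and 76.3% in WT. Slc25a3, which brings in phosphate for ATP synthesis (chromosome 10, 90579322 to 90586708 in mm9), was called lower at 266 FPKM in KO and 453 FPKM in WT, or 58.7%. Slc25a5, the main ADP/ATP exchanger of dividing cells (X chromosome, 34335646 to 34338801 in mm9), was called lower at 679 FPKM in KO and 987 FPKM in WT, or 68.8%. Slc25a4, the ADP/ATP exchanger typical of heart and muscle, stood at 292 FPKM in KO and 342 FPKM in WT and was not called (q = 0.199 in the authors' deposited table). The share of Slc25a4 in the sum of both exchangers was 30.1% in KO and 25.8% in WT. Both genes have similar coding sequences, and how common reads were assigned is stated nowhere in the material used. With equal totals Slc25a5 and Slc25a4 would lie above 0 and Slc25a3 below it.

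The 5 other carrier genes called lower move amino acids, cofactors or nucleotides. Slc25a32, which carries folate and FAD, stood at 8.05 FPKM in KO and 13.6 FPKM in WT. At 59.2% of the WT level, it was next to Slc25a3 in the size of its fall, for a log2 fold change of -0.76 (q = 0.000206) in the authors' deposited table. The aspartate/glutamate carriers of the malate-aspartate shuttle fell side by side, Slc25a12 to 15.4 FPKM in KO, against 22.3 FPKM in WT, and Slc25a13 to 44.1 FPKM in KO, against 58.8 FPKM in WT. Slc25a38, a glycine carrier needed for heme synthesis, stood at 6.56 FPKM in KO and 9.69 FPKM in WT. Slc25a33, a pyrimidine nucleotide carrier, stood at 10.9 FPKM in KO and 14.3 FPKM in WT, just inside the threshold (q = 0.0477 in the authors' deposited table). Of the 7 carrier genes called lower as deposited, only Slc25a3 and Slc25a32 would stay below 0 with equal totals.

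Some of the uncoupling-protein-like and of the ATP-Mg/phosphate carriers were among those that rose. Slc25a42, which brings coenzyme A into the matrix (chromosome 8, 72708238 to 72736180 in mm9), stood at 4.01 FPKM in KO and 1.66 FPKM in WT, a log2 fold change of 1.27 (q = 0.000206 in the authors' deposited table). Slc25a30, a relative of the uncoupling proteins, stood at 7.08 FPKM in KO and 3.10 FPKM in WT. Slc25a27, of the same branch, stood at 2.02 FPKM in KO and 1.41 FPKM in WT and was close to the threshold (q = 0.0406 in the authors' deposited table). The third of that branch, Slc25a14, was not called, at 3.50 FPKM in KO and 4.30 FPKM in WT.

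The ATP-Mg/phosphate carriers exchange adenine nucleotides against phosphate under the control of calcium. Slc25a23 stood at 7.50 FPKM in KO and 3.64 FPKM in WT, and Slc25a24 at 1.11 FPKM in KO and 0.554 FPKM in WT, so both were called higher at close to the same ratio (206% and 200.2% of the WT level). Their relatives were not called: Slc25a25 stood at 5.42 FPKM in KO and 5.87 FPKM in WT, and Slc25a41 at 1.78 FPKM in KO and 1.60 FPKM in WT. The last gene called higher was Slc25a34, whose substrate is not described here, at 0.643 FPKM in KO and 0.233 FPKM in WT. Slc25a34 and Slc25a24 had mean levels under 1 FPKM.

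The pyrimidine nucleotide carriers went opposite ways. Slc25a36 was called higher at 30.9 FPKM in KO and 18.5 FPKM in WT, while Slc25a33 was called lower as given above. The share of Slc25a33 in the sum of both was 26.01% in KO and 43.6% in WT. No test of the difference between the 2 genes was run. With equal totals both would lie above 0.

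Most other carriers of central metabolism were not called. Slc25a1, which exports citrate for lipid synthesis, stood at 36.96 FPKM in KO and 36.94 FPKM in WT. Slc25a11, the oxoglutarate/malate carrier, stood at 44.1 FPKM in KO and 49.2 FPKM in WT. Slc25a20, which brings in acylcarnitines for fatty acid oxidation, stood at 28.03 FPKM in KO and 23.2 FPKM in WT. These 3 genes lay between 89.5% and 121% of the WT level. Slc25a39, a glutathione carrier, stood at 99.2 FPKM in KO and 105 FPKM in WT, and its paralog Slc25a40 at 15.2 FPKM in KO and 17.9 FPKM in WT. The iron carriers Slc25a28 and Slc25a37 stood at 91.6% and 104% of the WT level. Slc25a17, a peroxisomal carrier of cofactors, stood at 39.9 FPKM in KO and 47.7 FPKM in WT.

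Slc25a26, the carrier of the methyl donor S-adenosylmethionine, missed the threshold at 5.18 FPKM in KO and 7.59 FPKM in WT, for a log2 fold change of -0.55 (q = 0.0644) in the authors' deposited table. It lies in a region joined with Lrig1 and Mir7041. The 26 carriers that were not called stood between 68.3% and 214% of the WT level, with 14 below and 12 above it. A q above the threshold does not show that their levels were equal. The carrier genes Slc25a2, Slc25a18, Slc25a21, Slc25a29, Slc25a48 and Slc25a54 were not tested, with 0.280 FPKM or less in KO and 0.384 FPKM or less in WT.

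**Figure D3:**
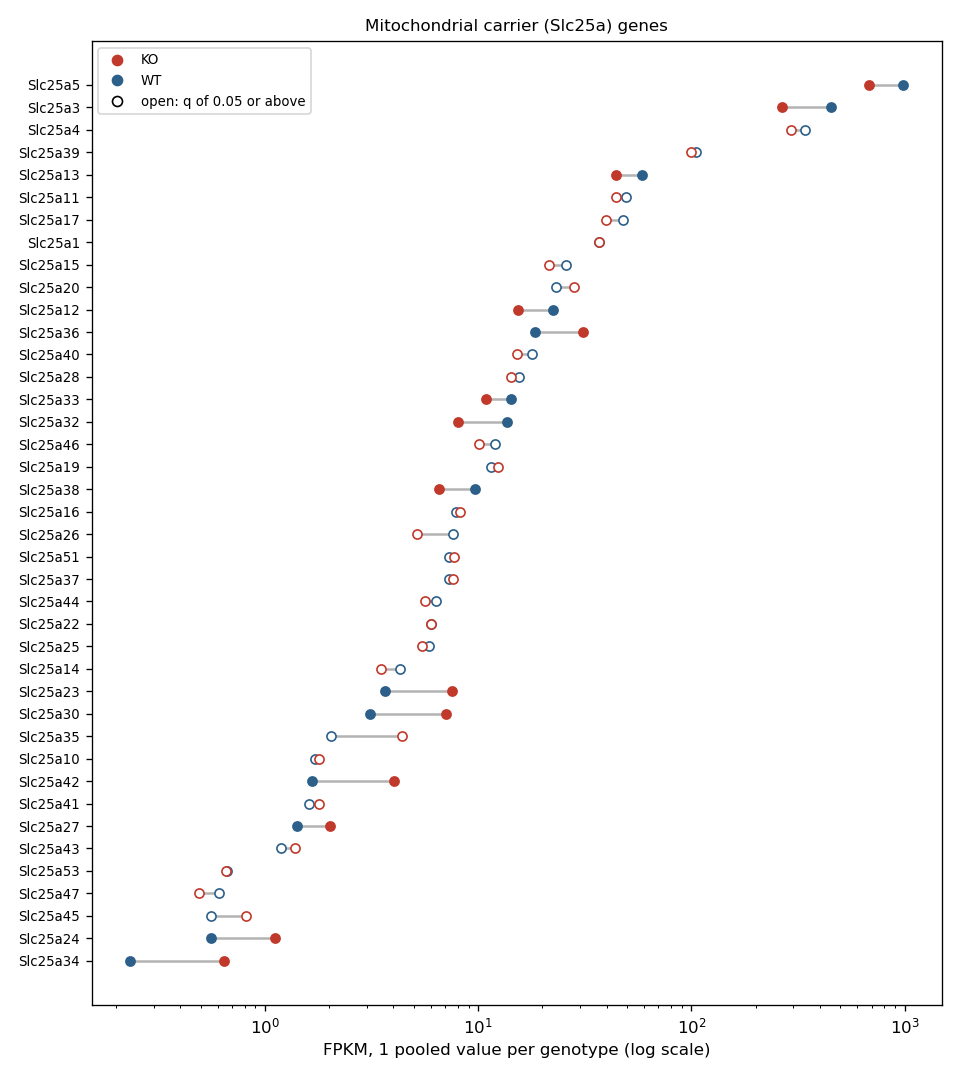
FPKM of the 40 carrier genes (log axis) in KO (red) and WT (blue), 1 pooled value each, ordered by the WT value; open points were not called. The genes called lower as deposited range from 9.69 to 987 FPKM in WT, and those called higher all lie at 18.5 FPKM or less in WT; with equal totals 38 of the 40 genes would lie above 0.

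Expression level and transcript length moved with the fold change across all genes, and both differ between the classes. Over all tested genes, the median log2 fold change ran from 0.69 in the lowest to -0.72 in the highest decile by mean FPKM, and from -0.49 in the shortest to 0.44 in the longest decile by transcript length. Median FPKM of the translocases was 42.1 in KO and 79.7 in WT, and that of the carriers was 7.64 in KO and 7.74 in WT. The median transcript length was 1569 bases for translocases, 2727 bases for carriers and 2916 bases for tested genes. Set against the median of all genes in the same decile by level, the translocases had a median of -0.29 with 20 of 23 below, and the carriers a median of 0.0088 with 20 of 40 below. The difference between the classes was then -0.30. Set against genes of the same decile by length, it was -0.62, and against classes formed jointly by level and length it was -0.34. Below the median of their joint class lay 16 of 23 translocases and 15 of 40 carriers. By complex, the medians relative to the same level decile were -0.61 for the small Tim chaperones, -0.14 for TOM, -0.54 for Timm22 alone and -0.057 for TIM23. Relative to the joint classes they were, in the same order, -0.38, -0.18, -0.44 and 0.12, with 2 of the 5 TIM23 genes below.

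Within bands of level the order of the classes was kept from 5 FPKM upward. At a mean of 5 to 20 FPKM, 3 of 4 translocases and 4 of 17 carriers were called lower, with medians of -0.69 and -0.13, next to -0.050 for all genes of that band. The carriers' share of 23.5% lower was close to the 23.3% over all genes of the band. At 20 to 100 FPKM, 7 of 9 translocases were called lower (median -0.57), and of 7 carriers 1 was lower and 1 higher (median -0.16), where 54.3% of all genes in the band were lower (median -0.45). Relative to the same level decile, these 9 translocases had a median of -0.063 and the 7 carriers one of 0.35. Relative to the joint classes by level and length, the medians were 0.072, with 4 of 9 below, and 0.49, with 1 of 7 below. At 100 FPKM and above, 8 of 8 translocases were called lower (median -1.03) and 2 of 4 carriers (median -0.38), where 77.7% of all genes were lower (median -0.74). Below 5 FPKM there were only 2 translocases, Tomm20l and Timm8a2, neither of them called, and 12 carriers with 4 called higher (33.3%), where 38.2% of all genes in the band were higher.

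Level and length were also compared with the fold change inside the translocases. Spearman's rho across the 23 genes was 0.11 with length and -0.69 with mean FPKM, against 0.33 and -0.55 across all tested genes. These are descriptions across genes, which share the libraries and are not independent replicates. Tomm70a and Tomm20 have transcripts of 5964 and 4902 bases, in a length decile with a median log2 fold change of 0.23, and were called lower. The part of level and length in these results was not tested. The carrier gene Slc25a36, with 5227 bases in the same decile, was called higher.

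**Figure D4:**
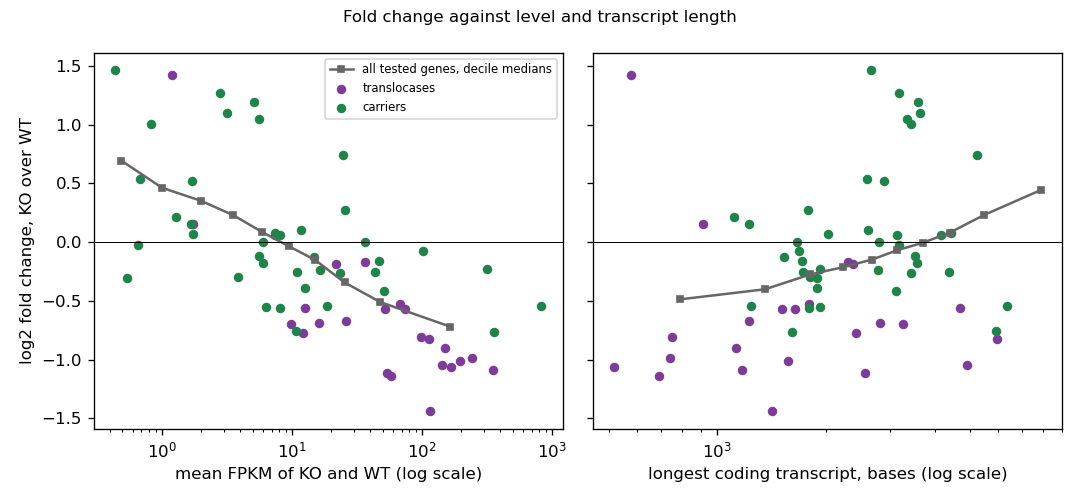
Log2 fold change (KO over WT) of translocase (purple) and carrier (green) genes against mean FPKM (left) and transcript length in bases (right), both on log axes; grey squares are medians of all tested genes by decile. By level 20 of 23 translocases and 20 of 40 carriers lie below the median of their decile; with equal totals points and squares would all stand 0.65 higher.

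Other genes of the import route, together with pores and carriers under other names, were lower more often than higher outside the naming pattern. Of 27 tested, 17 were called lower, 1 higher and 9 were not called, with a median log2 fold change of -0.70. The 27 include 8 pore and carrier genes, among them Ucp2, the 1 called higher. Relative to genes of the same level decile, the median of the 27 was -0.17, with 19 of 27 below. Of all tested genes, 28.4% were lower and 22.4% higher, and these shares hold as the background for the smaller groups below. The TIM23 import motor was lower in 5 of 6 genes. Hspa9, its Hsp70, stood at 313 FPKM in KO and 543 FPKM in WT, and its nucleotide exchange factor Grpel1 at 29.9 FPKM in KO and 48.1 FPKM in WT. The J proteins Dnajc19 and Dnajc15 were lowest of the motor at 40.8% and 46.3% of the WT level, and Pam16 stood at 60.7%. Grpel1 and Dnajc19 each lie in a region joined with another gene. Grpel2, a paralog of Grpel1, just missed the threshold (q = 0.0505 in the authors' deposited table).

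The oxidative folding relay that traps the small Tim proteins in the intermembrane space was lower in both genes. Its receptor Chchd4 stood at 59.6 FPKM in KO and 129.8 FPKM in WT, and the sulfhydryl oxidase Gfer at 24.4 FPKM in KO and 33.7 FPKM in WT. Of the 5 processing peptidase genes, Pmpcb (61.8% of the WT level), Immp1l (45.4%) and Mipep (72.1%) were called lower. Pmpca, the partner subunit of Pmpcb, was not called, at 33.6 FPKM in KO and 29.5 FPKM in WT. For insertion into the outer membrane, Samm50 stood at 87.9 FPKM in KO and 153 FPKM in WT, and Mtx1 and Mtx2 were lower too at 61.3% and 47.6%. Mtx3, Oxa1l and Cox18 were not called.

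Pores and carriers with other names were mixed, with 4 of 8 called lower and 1 higher, against 28.4% and 22.4% of all tested genes. Most are highly expressed, and relative to genes of the same level decile their median was 0.23, with 3 of 8 below. The outer membrane pore genes Vdac2, in a region joined with another gene, and Vdac3 were called lower at 53.5% and 59.7% of the WT level. Vdac1 was not called, at 467 FPKM in KO and 560.5 FPKM in WT. Of the pyruvate carrier subunits, Mpc2 was called lower at 17.2 FPKM in KO and 28.7 FPKM in WT, and Mpc1 was not called. Mtch2, an outer membrane relative of the carriers that inserts proteins, was lower at 61.0%, and its paralog Mtch1 was not called. Ucp2, an uncoupling protein of the Slc25 family under another name, was called higher at 18.4 FPKM in KO and 13.0 FPKM in WT. With equal totals, the median of the 27 genes outside the naming pattern would be -0.043. Above 0 would lie 12 of them, against 5 as deposited. Of the 17 called lower, only Mipep and Gfer would be among these.

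Families next to these in function were set beside them, against the shares of 28.4% lower and 22.4% higher over all tested genes. Mitochondrial ribosomal protein genes had a median log2 fold change of -0.85, with 74 of 77 called lower and none higher. Nduf genes (subunits and assembly factors of complex I) had a median of -0.67, with 41 of 45 lower and none higher. With equal totals, 16 of the 77 ribosomal and 20 of the 45 Nduf genes would lie above 0, and the medians would be -0.20 and -0.012. Relative to genes of the same level decile the medians were -0.32 for the ribosomal and -0.0035 for the Nduf genes, next to -0.29 for the translocases. Solute carrier genes other than Slc25a had a median of 0.30, with 34 of 210 lower and 85 higher. These values stand side by side as descriptions and no test between the families was run.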

How the data were processed

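Libraries were made from total RNA with a strand-specific mRNA kit, per the labels' protocols, and aligned with TopHat2 to mm9, per the submitters' processing notes; no source used here names the annotation. Per the file headers, the table is laid out as Cuffdiff writes it. The authors deposited FPKM pooled over replicates, 1 value per genotype. Their log2 fold change, their p-value and q-value, and a score that serves as test statistic are used as deposited. No test was rerun. Whether replicates were separate cultures is not stated, so q-values may reflect technical spread.

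Genes were called at a deposited q under 0.05. Members and lists were chosen with earlier results of these data known. Every translocase is named, with carriers taken by level (10), by called fold change (5 each way, mean of at least 1 FPKM) or as Slc25a26, Slc25a4, Slc25a5, Slc25a12 and Slc25a13; further carriers were named after their values were seen. Class medians used 10 classes by level or by length, or 5 by 5 jointly. Length is that of the longest coding GENCODE M21 transcript, found for 99.2% of tested genes by symbol or synonym, with no coordinates used. Of the promoters, 7 motifs were searched, chosen with the fold changes known, in 250 bases upstream. Class centring was tested on simulated data. Software was Python 3.11.15, NumPy 2.4.6, Matplotlib 3.10.9 and pandas 2.3.3.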

Additional observations from a re-analysis of the deposited data

How the results depend on the processing

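No paired analysis was possible because the table holds 1 pooled value per genotype, and for the same reason no replicate could be left out. The count of 18 translocases lower was within 1.5 times under every alternative (13 to 18), and none were higher except 4 with equal totals. The 7 carriers lower became 2 with a fold of at least 1.5 and 2 with equal totals, and the 7 higher became 12 with equal totals. Among the import-route, pore and carrier genes outside the naming pattern, the count of 1 higher (Ucp2) became 0 with a fold of at least 1.5 and 3 with equal totals. The translocase median of -0.77 was -0.71 with a pseudocount of 1, -0.71 against all tested genes, -0.12 with equal totals, -0.29 against the same level, -0.54 against the same length, -0.25 against both, -0.66 as a mean and -0.76 without joined regions. The carrier median of -0.051 was -0.043 with the pseudocount and -0.12 at a mean of at least 1 FPKM. It turned to 0.0087 against all tested genes, 0.60 with equal totals, 0.0088 against the same level, 0.081 against the same length, 0.091 against both, 0.071 as a mean, 0.00058 without joined regions and 0.00058 without the ADP/ATP and phosphate carriers, so it has no stable sign. The difference of -0.72 was -0.67 with the pseudocount, -0.30, -0.62 and -0.34 against level, length and both, -0.73 as means, -0.66 at a mean of at least 1 FPKM, -0.76 without joined regions, -0.68 without the small Tim genes and -0.41 among members of 20 to 100 FPKM. Apart from the fold threshold, filters and scalings, whose construction sets their effect, the cause was not tested. Equal totals for counts, joint classes and the last subsets were added after seeing the data.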

Other observations

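Neighbouring members were read side by side. On chromosome 17 the table places Slc25a41 and Slc25a23 2056 bases apart (mm9), with Slc25a23 at 7.50 FPKM in KO and 3.64 FPKM in WT and Slc25a41 at 1.78 FPKM in KO and 1.60 FPKM in WT. On the X chromosome, Slc25a43 and Slc25a5 lie 18344 bases apart, with Slc25a43 at 1.37 FPKM in KO and 1.19 FPKM in WT and Slc25a5 at 679 FPKM in KO and 987 FPKM in WT. On chromosome 3, Slc25a54, which lies 6566 bases from Slc25a24, is listed at 0 in both genotypes. On chromosome 12, Slc25a29 and Slc25a47 lie 15252 bases apart and were both low, with Slc25a29 at 0.280 FPKM in KO and 0.384 FPKM in WT and Slc25a47 at 0.489 FPKM in KO and 0.604 FPKM in WT. The antisense gene Tomm6os, in a region joined with Tomm6, stood at 0.802 FPKM in KO and 0.650 FPKM in WT, and no source used here says whether the counting used strand.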
